A study of Mus musculus with 20 samples.

Results

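The genes described here are 10 that are known for signalling and neuropeptides of the striatum, the large subcortical nucleus of the forebrain: Drd2, Adora2a, Chrm4, Ppp1r1b, Pde10a, Penk, Tac1, Sst, Npy and Cck. They were chosen by name, and all probe sets annotated to them were taken. Of the 10 genes, 9 had a probe set in the table used here, with 11 probe sets in all (3 of them for Pde10a), out of 12393 genes and 22626 probe sets in the whole series. Adora2a had none and is not analysed here. No probe set was shared with another gene.

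Total brain RNA of knock-in (KI) and wild-type (WT) mice was measured on 20 single-channel arrays with Affymetrix probe set names. KI and WT forebrain and KI and WT cerebellum had 3 arrays each at 4 weeks and 2 arrays each at the later age, which made 8 groups. The older mice are 11 weeks old by the descriptions and 12 weeks old by the titles; 11 weeks is used below. Which allele was knocked in, the strain and the sex are not stated in the labels. Nor is it stated that each array holds RNA of its own mouse, so p-values reflect the scatter between these samples, part of which may be technical. Region was taken from the short code in each title, with Cb read as cerebellum and Cx as forebrain. The titles spell out forebrain only for the 3 Cx arrays of WT mice at 4 weeks. They do not say how much striatum the Cx samples held. For 7 of the 10 forebrain arrays, all but the 3 of WT mice at 4 weeks, other label fields name cerebellum, and for KI forebrain 4 weeks replicate 3 the description does so too.

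In the striatum, projection neurons are of 2 main kinds. One kind carries the dopamine D2 receptor Drd2, the adenosine receptor Adora2a and the enkephalin precursor Penk, while the other carries the D1 receptor, the substance P precursor Tac1 and the muscarinic receptor Chrm4. Both kinds hold the phosphatase inhibitor Ppp1r1b (DARPP-32), through which dopamine acts on protein phosphorylation, and the phosphodiesterase Pde10a, which breaks down cyclic nucleotides. Sst and Npy are peptides of interneurons in striatum and cortex, and Cck is a peptide of many cortical neurons. In the cerebellum, enkephalin is known from Golgi cells.

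Promoters are shown for the 3 genes whose intensity differed between genotypes in at least 1 comparison (Chrm4, Tac1, Cck) and for Sst, whose promoter holds the cAMP response element, the site through which cAMP signalling acts on transcription. Each run is the 250 bases before the start of transcription, 5′ to 3′ on the gene's strand, from RefSeq, build GRCm38.p6. Of the 10 genes, 7 had a promoter entry. Capitals mark the element TGACGTCA or its half-site, CGTCA or TGACG on either strand; the full element contains both half-sites.
Chrm4 (chr2:91921939-91922188, plus strand): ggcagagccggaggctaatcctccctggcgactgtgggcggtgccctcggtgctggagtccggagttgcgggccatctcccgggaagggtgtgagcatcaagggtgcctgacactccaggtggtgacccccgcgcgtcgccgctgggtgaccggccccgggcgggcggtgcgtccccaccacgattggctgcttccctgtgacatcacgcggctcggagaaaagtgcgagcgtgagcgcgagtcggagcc
Tac1 (chr6:7554811-7555060, plus strand): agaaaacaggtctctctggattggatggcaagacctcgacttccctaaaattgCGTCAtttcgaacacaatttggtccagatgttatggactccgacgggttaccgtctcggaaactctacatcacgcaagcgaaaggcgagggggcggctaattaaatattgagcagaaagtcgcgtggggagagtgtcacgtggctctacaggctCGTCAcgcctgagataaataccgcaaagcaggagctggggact
Cck (chr9:121495695-121495944, minus strand): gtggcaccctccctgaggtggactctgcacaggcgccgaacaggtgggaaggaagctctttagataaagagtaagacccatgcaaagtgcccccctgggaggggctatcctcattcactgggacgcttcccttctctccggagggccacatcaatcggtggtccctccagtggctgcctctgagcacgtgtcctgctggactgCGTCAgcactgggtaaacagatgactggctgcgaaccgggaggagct
Sst (chr16:23890845-23891094, minus strand): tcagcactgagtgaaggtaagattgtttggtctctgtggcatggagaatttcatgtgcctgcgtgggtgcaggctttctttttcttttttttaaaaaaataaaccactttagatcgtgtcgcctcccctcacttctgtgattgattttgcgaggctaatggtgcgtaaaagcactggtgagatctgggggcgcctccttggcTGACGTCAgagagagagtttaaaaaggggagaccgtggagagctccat

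The full element lay at -48 in Sst, and 1.55% of 32851 RefSeq mouse promoters of this length held one. A half-site lay at -197 and -43 in Tac1 and at -47 in Cck, and 17.8% of the promoters held at least 1. The Chrm4 window held neither. It held the GC box GGGCGG at -215, -92 and -88, and 32.7% of the promoters held that motif or its reverse complement CCGCCC. Of the 7 genes with an entry, 3 had a half-site (Tac1, Cck, Sst) and 5 a GC box. These matches are letters in a window and do not show that a factor binds there.

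Intensities are linear array units that the authors had scaled to a common mean on each array. They are compared for 1 probe set across arrays, not between probe sets. The 40th percentile of each array (606 to 775) served as the filter limit, and a probe set was tested where it exceeded that limit on at least 2 of 20 arrays. This kept 15627 of 22626 probe sets and 9 of the 11 member probe sets. Chrm4 was kept only through 2 KI forebrain arrays, so its test is open to that choice. Drd2 lay above the limit on 1 array and the third Pde10a probe set (1432490_a_at) on 0, and neither was kept. Differences are of log2(intensity + 16), given with the standard error of a limma model fitted to all 20 arrays, and a probe set was called where its two-sided p, adjusted by Benjamini-Hochberg over the 15627 probe sets, was under 0.05.

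Several features of the arrays moved with genotype or stood apart. The filter limit itself was 697 to 758 on KI and 606 to 680 on WT forebrain arrays, and 682 to 775 on KI and 617 to 667 on WT cerebellar arrays. RNA quality was read from the GAPDH control probe sets, whose 3′/5′ ratio was 0.827 to 0.890 in KI and 0.744 to 0.828 in WT forebrain at 4 weeks, and 0.804 to 0.817 in KI and 0.805 to 0.821 in WT forebrain at 11 weeks. In cerebellum it was 0.828 to 0.850 in KI and 0.824 to 0.864 in WT mice at 4 weeks, and 0.848 to 0.903 in KI and 0.823 to 0.842 in WT mice at 11 weeks. The same ratio of actin was 1.09 to 1.22 in KI and 1.15 to 1.23 in WT forebrain at 4 weeks, and 0.934 to 1.06 in KI and 1.09 to 1.15 in WT forebrain at 11 weeks, without overlap at the later age. In cerebellum the actin ratios of KI and WT mice overlapped at both ages. KI cerebellum 4 weeks replicate 2 read 657 for Hoxb5, a gene of caudal hindbrain and spinal cord, against 28.0 to 40.1 on the other 9 cerebellar arrays. The reading of 657 itself lay below the filter limit of that array (686). Without that array, the 4-week KI minus WT differences of the 8 tested member probe sets other than Tac1 stayed uncalled, and the largest shift in size was that of Sst. The values of Tac1 and Sst without it stand beside their results.

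**Figure D1:**
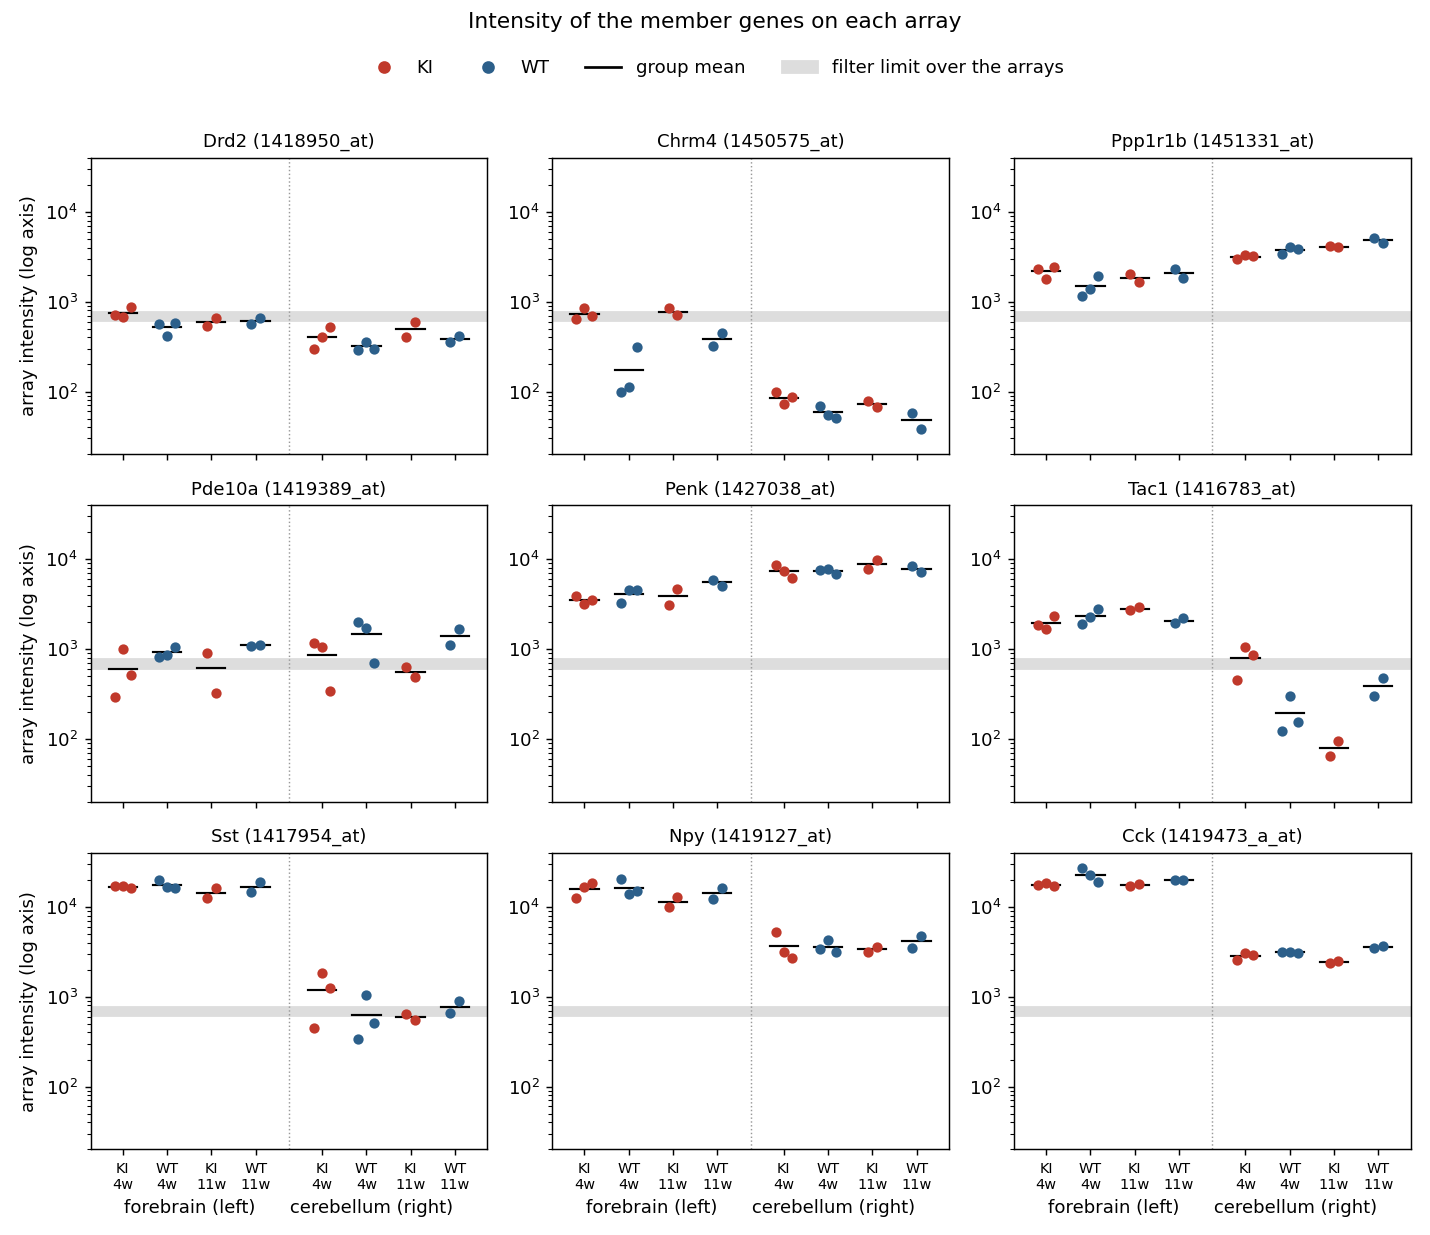
Array intensity (vertical, log axis) of 9 member genes, 1 probe set each, on the 20 arrays, with KI in red left of WT in blue for each age and forebrain left of cerebellum; each point is an array, black bars are group means and the grey band is the range of the filter limit. Chrm4 on the 5 KI forebrain arrays (647 to 855) lies above the 5 WT ones (97.7 to 450), and Tac1 in cerebellum is higher in KI at 4 weeks and lower in KI at 11 weeks.

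The regions were set against each other first, to see where the listed genes were detected. Of the 9 tested member probe sets, 7 were called in KI and the same 7 in WT mice, where 45.6% (KI) and 47.9% (WT) of all probe sets were called. Tac1, Sst, Npy, Cck and Chrm4 were higher in forebrain, 5 of 9 in both genotypes, beside 21.2% (KI) and 21.3% (WT) of all probe sets. Chrm4 passed the filter only through 2 forebrain arrays, both of KI mice, so its place in these counts is no support of its own. Ppp1r1b and Penk, known as striatal genes, were lower in forebrain than in cerebellum, 2 of 9 beside 24.5% (KI) and 26.6% (WT). For bulk tissue, fewer cells of a type and less RNA per cell cannot be told apart.

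Sst, the peptide of a class of GABAergic interneurons, had the largest difference. Its intensity was 15794 ± 1823 in forebrain and 941 ± 588 in cerebellum of KI mice (SD, n = 5), and 17284 ± 2209 in forebrain and 687 ± 281 in cerebellum of WT mice. The log2 difference was 4.30 ± 0.32 in KI (adjusted p = 2.24e-08) and 4.67 ± 0.32 in WT mice (adjusted p = 6.99e-09). Cck was 2.74 ± 0.09 higher in KI and 2.66 ± 0.09 higher in WT forebrain (adjusted p = 1.24e-12 and 1.3e-12). Npy, a peptide often made by the same interneurons as Sst, differed by 1.94 ± 0.19 in KI and 1.97 ± 0.19 in WT mice (adjusted p = 4.4e-07 and 3.09e-07). Tac1 differed by 3.12 ± 0.25 in KI and 2.99 ± 0.25 in WT mice (adjusted p = 4.56e-08 and 6.12e-08). In WT cerebellum Tac1 lay below the filter limit on all 5 arrays, so that forebrain was at least 3.43-fold higher when the dim values are raised to that limit. Chrm4 differed by 3.02 ± 0.23 in KI (adjusted p = 3.08e-08) and 1.91 ± 0.23 in WT mice (adjusted p = 4.85e-06), where both regions lay below the limit. With the KI cerebellar arrays raised to their limits, KI forebrain was 1.05-fold higher. Chrm4 lay above the limit on only 2 of the 5 KI forebrain arrays, so this ratio is no bound on its difference.

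Ppp1r1b read 2033 ± 333 in forebrain and 3543 ± 517 in cerebellum of KI mice, and 1721 ± 451 in forebrain and 4175 ± 682 in cerebellum of WT mice (SD, n = 5). The forebrain and cerebellar arrays did not overlap in either genotype. The difference was -0.86 ± 0.13 in KI (adjusted p = 6.8e-05) and -1.28 ± 0.13 in WT mice (adjusted p = 8.28e-07). Penk read 3671 ± 662 in forebrain and 7988 ± 1349 in cerebellum of KI mice, and 4674 ± 992 in forebrain and 7578 ± 563 in cerebellum of WT mice. Again no forebrain array reached a cerebellar one, with differences of -1.13 ± 0.14 in KI and -0.68 ± 0.14 in WT mice (adjusted p = 6.77e-06 and 0.000801). Neither tested Pde10a probe set differed between regions beyond its error. The difference was -0.26 ± 0.41 (95% interval -1.12 to 0.60) in KI and -0.44 ± 0.41 (-1.30 to 0.43) in WT mice for the first, 1419389_at, and -0.20 ± 0.21 and -0.17 ± 0.21 for the second, 1419390_at.

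**Figure D2:**
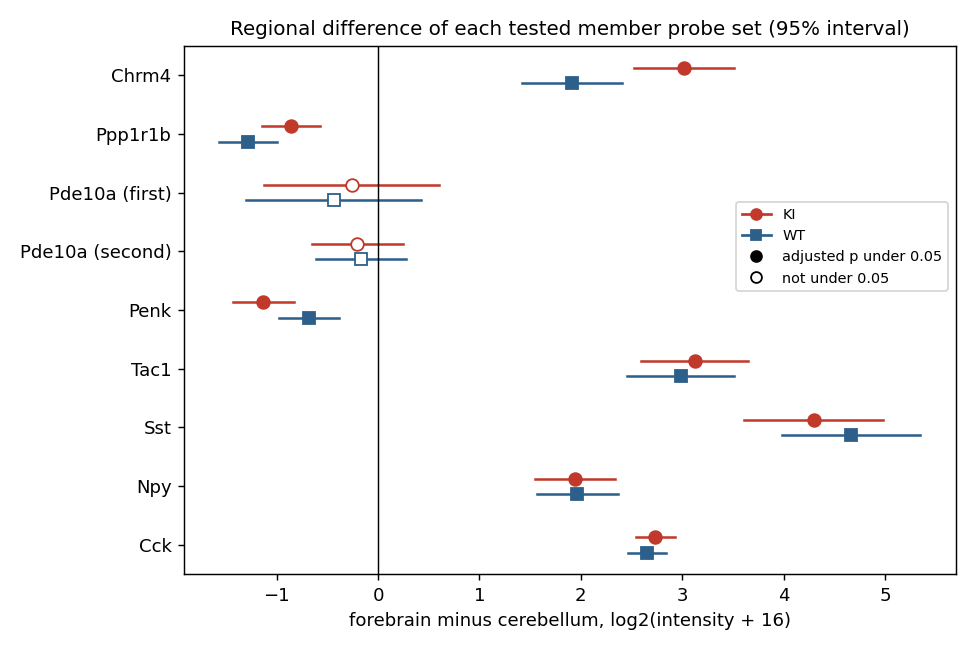
Forebrain minus cerebellum on the log2(intensity + 16) scale (horizontal) for the 9 tested member probe sets, with KI (red circles) above WT (blue squares), 95% intervals as lines and filled symbols where the adjusted p was under 0.05. The 5 probe sets right of 0 are higher in forebrain in both genotypes, with Sst farthest at 4.30 (KI) and 4.67 (WT), while Ppp1r1b and Penk lie left of 0.

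Markers of striatal projection neurons were few on this array. Of 6 marker genes fixed for that cell type, 2 (Rgs9 and Rasd2) had a probe set, and their summed intensity in the WT groups was 6666 to 10499 in forebrain and 4780 to 6595 in cerebellum. The cortical excitatory list, with 7 of 9 markers present, separated every forebrain array (60411 to 110750) from every cerebellar one (8814 to 14441), the 7 forebrain arrays with conflicting labels included. Cerebellar granule cell markers summed to at most 6772 on the forebrain arrays and at least 156010 on the cerebellar arrays. In a wider list of other striatal projection neuron genes, 14 of 28 were tested, and 11 were higher and 0 lower in WT forebrain. They had a median log2 difference of 1.34, against -0.04 over all 9105 genes, of which 22.7% were higher. Examples are Bcl11b, a transcription factor of striatal and deep cortical neurons (7.10 ± 0.14), Ptpn5, a striatum-enriched phosphatase (2.89 ± 0.11), and Hpca, a calcium sensor (2.39 ± 0.07), with adjusted p of 9.52e-15, 3.49e-12 and 1.71e-13.

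KI and WT were compared next, within each region and age. With so few arrays, many probe sets had groups that did not overlap: 28.7% of all in forebrain at 4 weeks (2 of 9 member probe sets), 47.9% at 11 weeks (6 of 9), 18.8% in cerebellum at 4 weeks (3 of 9) and 49.3% at 11 weeks (7 of 9). Groups that stand apart are therefore described below but not read as a difference unless the test passed.

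Among the receptors, Chrm4, the M4 muscarinic receptor that opposes dopamine D1 signalling in striatal neurons, was higher in KI forebrain at 4 weeks. Its intensity was 647, 855 and 694 on the 3 KI arrays, against 97.7, 113 and 312 on the 3 WT arrays. The older KI arrays read 850 and 702, against 319 and 450 on the WT arrays. At both ages every KI array lay above every WT array, and WT 4 weeks replicate 3 was the highest of its 3.

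The difference was 2.14 ± 0.29 log2 units at 4 weeks, 4.40-fold on the fitted scale (adjusted p = 0.00189). All 3 WT arrays lay below the filter limit, and 1 of the 3 KI arrays lay above its own. With the WT arrays raised to their limits the KI level was 1.14-fold higher. The limits were themselves 1.14-fold higher on KI than on WT forebrain arrays on average, so this ratio is no bound on a Chrm4 difference. Chrm4 was the 1 of 9 member probe sets called in this comparison, in which 7.37% of all probe sets were called and 4.95% were called higher. At 11 weeks the difference was 1.00 ± 0.36 (95% interval 0.23 to 1.76, adjusted p = 0.197), and 0 of 9 member probe sets were called in limma, where 0.864% of all probe sets were. At an unadjusted p under 0.05, 2 of 9 passed at that age (Chrm4 and Penk) and 15.6% of all probe sets did. The difference between the ages was -1.14 ± 0.46 (adjusted p = 0.773). Averaged over both ages, Chrm4 was 1.57 ± 0.23 higher in KI forebrain (adjusted p = 0.00132, 13.5% of probe sets called).

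The Chrm4 result at 4 weeks remained called without each of the 6 arrays in turn, at 1.85 to 2.62. Without KI replicate 3, whose description names cerebellum, it was 2.17 (adjusted p = 0.00657). Quantile and cyclic loess normalization, which even out the dim ends of the arrays, gave 1.93 and 1.80 (adjusted p = 0.00424 and 0.00594). The probe set passed the filter only through KI forebrain arrays, so the number of members called, which includes it, is no support of its own. With no filter the difference was called too (adjusted p = 0.00505), while a stricter filter at the 60th percentile dropped the probe set.

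Other markers moved with genotype in forebrain. The summed intensity of 9 GABAergic interneuron markers was 31581 to 33232 in KI and 39285 to 42291 in WT mice at 4 weeks, and 31676 to 35553 in KI and 40034 to 40127 in WT mice at 11 weeks. That of 7 cortical excitatory markers was 72267 to 77657 in KI and 78928 to 110750 in WT mice at 4 weeks, and 60411 to 68643 in KI and 87366 to 95489 in WT mice at 11 weeks. At 4 weeks 3 hippocampal markers (of 6 listed) summed to 23823 to 25757 in KI and 27734 to 28741 in WT mice. At 11 weeks they summed to 22506 to 23332 in KI and 25828 to 27979 in WT mice. The list of Purkinje cells, which shares Calb1, summed to 22977 to 24923 in KI and 25398 to 26587 in WT forebrain at 4 weeks. Its ranges overlapped at 11 weeks. The 2 striatal projection neuron markers summed to 8621 to 11254 in KI and 6666 to 10499 in WT forebrain at 4 weeks. At 11 weeks they summed to 7340 to 7676 in KI and 7379 to 10009 in WT forebrain. The ranges of these 2 markers overlapped at both ages.

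Other marker lists were higher in KI forebrain, as Chrm4 was. Midbrain dopamine neuron markers (5 of 6 on the array) summed to 3005 to 3724 in KI and 2231 to 2513 in WT mice at 4 weeks, and 2970 to 3670 in KI and 2350 to 2552 in WT mice at 11 weeks. These markers were dim: at 4 weeks 4 of the 5 lay below the limit on all WT forebrain arrays. In KI forebrain of that age 1 of the 5 lay above it on all arrays. Cholinergic neuron markers (3 of 4, of which Ache alone passed the filter) summed to 3602 to 3786 in KI and 3234 to 3336 in WT mice at 4 weeks, and 3727 to 4034 in KI and 3028 to 3116 in WT mice at 11 weeks. At 4 weeks microglial markers summed to 37902 to 42490 in KI and 33081 to 36303 in WT mice, and astrocyte markers to 95994 to 100450 in KI and 85876 to 94932 in WT mice. At 11 weeks the microglial ranges overlapped, and the astrocyte sum was lower in KI (77535 to 78199) than in WT mice (93891 to 104740). The part of all these shifts in the Chrm4 result was not tested.

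In cerebellum Chrm4 was dim in all groups. It read 98.2, 72.1 and 85.8 in KI and 69.4, 55.4 and 50.9 in WT mice at 4 weeks, and 78.0 and 66.9 in KI and 58.0 and 38.2 in WT mice at 11 weeks. The KI arrays lay above the WT arrays at both ages, but all 10 values were below the filter limit, so no fold is given. The differences of 0.44 ± 0.29 and 0.48 ± 0.36 did not pass (adjusted p = 0.561 and 0.583). The genotype effect was 1.11 ± 0.33 larger in forebrain than in cerebellum (adjusted p = 0.247), where 0.282% of all probe sets were called and 0 of 9 member probe sets were. At an unadjusted p under 0.05, 3 of 9 passed in limma (Chrm4, Ppp1r1b, Penk), as did 9.14% of all probe sets. Without WT forebrain 4 weeks replicate 3 the Chrm4 difference between regions was called, at 1.35 (adjusted p = 0.00928).

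Drd2, the D2 dopamine receptor, was dim throughout. In forebrain it read 718, 668 and 877 in KI and 564, 411 and 582 in WT mice at 4 weeks, and 537 and 666 in KI and 565 and 664 in WT mice at 11 weeks. The 4-week groups did not overlap and the 11-week groups did. In the same model fitted to all 22626 probe sets the difference was 0.53 ± 0.21 at 4 weeks (adjusted p = 0.149) and -0.03 ± 0.25 at 11 weeks (adjusted p = 0.976). In cerebellum Drd2 read 301 to 594 in KI and 293 to 411 in WT mice, below the limit on all 10 arrays. Forebrain read above the limit on 1 of 10 arrays. Forebrain exceeded cerebellum by 0.58 ± 0.16 in KI and 0.66 ± 0.16 in WT mice in that fit (adjusted p = 0.0134 and 0.00545), between values that are dim on both sides.

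Among the intracellular effectors, Ppp1r1b was above the limit on all 20 arrays. In forebrain at 4 weeks it read 2313, 1771 and 2416 in KI, against 1152, 1392 and 1924 in WT mice. The older mice read 2018 and 1645 in KI, against 2289 and 1848 in WT mice. The genotypes overlapped at both ages. The difference was 0.56 ± 0.17 at 4 weeks (95% interval 0.20 to 0.91, adjusted p = 0.0574) and -0.17 ± 0.21 at 11 weeks, and neither passed. Without WT forebrain 4 weeks replicate 3 the 4-week difference was 0.75 (adjusted p = 0.019), with the replicate number as a block it kept its size (adjusted p = 0.0418), and under the stricter filter its adjusted p was 0.0474.

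In cerebellum Ppp1r1b was slightly lower in KI mice on average, without passing. It read 3020, 3272 and 3224 in KI and 3352, 4012 and 3854 in WT mice at 4 weeks. The values at 11 weeks were 4137 and 4062 in KI and 5146 and 4512 in WT mice. Each KI array lay below each WT array of its age. The differences were -0.23 ± 0.17 and -0.23 ± 0.21, with 95% intervals of -0.59 to 0.13 and -0.67 to 0.21.

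Pde10a had 2 tested probe sets, and both had lower KI than WT means in all 4 region and age pairs. The first, 1419389_at, read 290, 1003 and 519 in KI and 823, 870.0 and 1063 in WT forebrain at 4 weeks, and 901 and 325 in KI and 1076 and 1123 in WT forebrain at 11 weeks. In cerebellum it read 1182, 1061 and 339 in KI and 1997, 1713 and 705 in WT mice at 4 weeks, and 633 and 488 in KI and 1127 and 1687 in WT mice at 11 weeks. The KI arrays differed widely within groups, and KI and WT stood apart at 11 weeks in both regions and overlapped at 4 weeks. This probe set lay above the filter limit on 14 of 20 arrays, and on 0 of the 2 KI cerebellar arrays at 11 weeks.

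The mean difference over ages was -0.88 ± 0.41 in forebrain (95% interval -1.74 to -0.01, adjusted p = 0.157) and -1.05 ± 0.41 in cerebellum (-1.92 to -0.19, adjusted p = 0.148). The second probe set, 1419390_at, read 541 to 752 in KI and 689 to 949 in WT forebrain, with a mean difference of -0.37 ± 0.21, and -0.33 ± 0.21 in cerebellum. Neither probe set passed in any genotype comparison.

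The third Pde10a probe set, 1432490_a_at, read 29.6 to 550 over the 20 arrays and was above the limit on none. It carried no measurable order between groups, and all 7 neighbouring pairs in its ranking of 8 groups overlapped. At single ages its fitted genotype differences had standard errors of 0.65 to 0.79 log2 units, and none passed.

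Among the peptides of projection neurons, Penk was read well above the limit on every array. In forebrain at 4 weeks it was 3876, 3186 and 3512 in KI, against 3247, 4509 and 4538 in WT mice. The older mice had 3067 and 4713 in KI, against 5962 and 5113 in WT mice. The groups overlapped at 4 weeks and not at 11 weeks. The difference was -0.20 ± 0.18 at 4 weeks and -0.54 ± 0.22 at 11 weeks (adjusted p = 0.244), and -0.37 ± 0.14 over both ages (95% interval -0.67 to -0.07, adjusted p = 0.0883). In cerebellum Penk read 6241 to 9820 in KI and 6842 to 8351 in WT mice, with a mean difference of 0.08 ± 0.14 (95% interval -0.22 to 0.38).

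Tac1, the precursor of substance P and neurokinin A, was called in cerebellum in opposite directions at the 2 ages. At 4 weeks it read 459, 1069 and 864 on the KI arrays, against 123, 302 and 153 on the WT arrays. On the older arrays it read 64.7 and 96.1 on the KI arrays, against 299 and 477 on the WT arrays. The genotypes did not overlap at either age. KI was the higher one at 4 weeks and the lower one at 11 weeks.

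At 4 weeks Tac1 was 1.97 ± 0.31 higher in KI cerebellum (adjusted p = 0.0325), where 2 of the 3 KI arrays lay above the limit. With the 3 WT arrays raised to the limit it was 1.15-fold higher, beside limits that were 1.11-fold higher on KI cerebellar arrays on average. Tac1 was 1 of 9 member probe sets called, where 0.0512% of all probe sets (8 of 15627) were. At 11 weeks it was -2.05 ± 0.38 in KI cerebellum (adjusted p = 0.0381), with 0.346% of all probe sets called. All 4 arrays lay below the limit there, so no fold is given. The genotype effect at 11 weeks minus that at 4 weeks was -4.02 ± 0.50 (adjusted p = 0.00907), a comparison in which 0.0256% of all probe sets were called. Within KI cerebellum, Tac1 was -3.01 ± 0.35 at 11 against 4 weeks (adjusted p = 0.00108, 0.557% called), and within WT cerebellum 1.01 ± 0.35 (adjusted p = 0.335, 0.198% called).

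These calls rested on few arrays. At 4 weeks the call was lost without KI replicate 3 (1.87, adjusted p = 0.0902), WT replicate 1 (1.73, 0.0565) or WT replicate 3 (1.87, 0.0977), and at 11 weeks without either KI array (-1.81, 0.117, and -2.29, 0.143) or WT replicate 2 (-1.73, 0.232). The change of the genotype effect between ages remained called without each of 10 arrays in turn, but not in a fit to the cerebellar arrays alone (adjusted p = 0.296). KI 4 weeks replicate 2 was the array that stood apart in Hoxb5, below its limit. Without it, Tac1 was 1.72 higher at 4 weeks (adjusted p = 0.0427), and the change between ages was -3.77 (adjusted p = 0.0279).

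Genes of other hindbrain tissue also varied between the cerebellar arrays. A list of brainstem neuron genes, added with results known and with 15 of 20 genes on the array, summed to 5764 to 10069 in KI and 3641 to 5306 in WT cerebellum at 4 weeks, without overlap. The sum of 10069 is that of KI replicate 2, and the other KI arrays had 5764 and 7491. At 11 weeks it summed to 4960 to 5145 in KI and 4171 to 6531 in WT cerebellum, which overlapped. The sum of 6531 is that of WT replicate 2, which also had the highest Tac1 of that age (477). Over the 10 cerebellar arrays the Spearman correlation of Tac1 with this sum was 0.78, and 0.70 without KI 4 weeks replicate 2. Of the 15, 9 lay below the limit on all 3 KI arrays at 4 weeks and 12 on all 3 WT arrays. Slc17a6, the vesicular glutamate transporter of brainstem neurons, read 3035 on KI 4 weeks replicate 2. On the other 9 cerebellar arrays it read 625 to 2553, with a median of 1152. Choroid plexus genes summed to 42425 to 87740 in KI and 89905 to 98180 in WT cerebellum at 4 weeks. At 11 weeks they were higher in KI, at 105310 to 110030 against 97730 to 97965 in WT cerebellum. The part of these tissues in the Tac1 result was not tested.

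In forebrain Tac1 did not pass. It read 1862, 1665 and 2339 in KI and 1910, 2306 and 2769 in WT mice at 4 weeks, and 2701 and 2941 in KI and 1943 and 2213 in WT mice at 11 weeks. KI lay above WT on all arrays at 11 weeks only. The difference was -0.25 ± 0.31 at 4 weeks (95% interval -0.91 to 0.42) and 0.44 ± 0.38 at 11 weeks (-0.38 to 1.26).

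**Figure D3:**
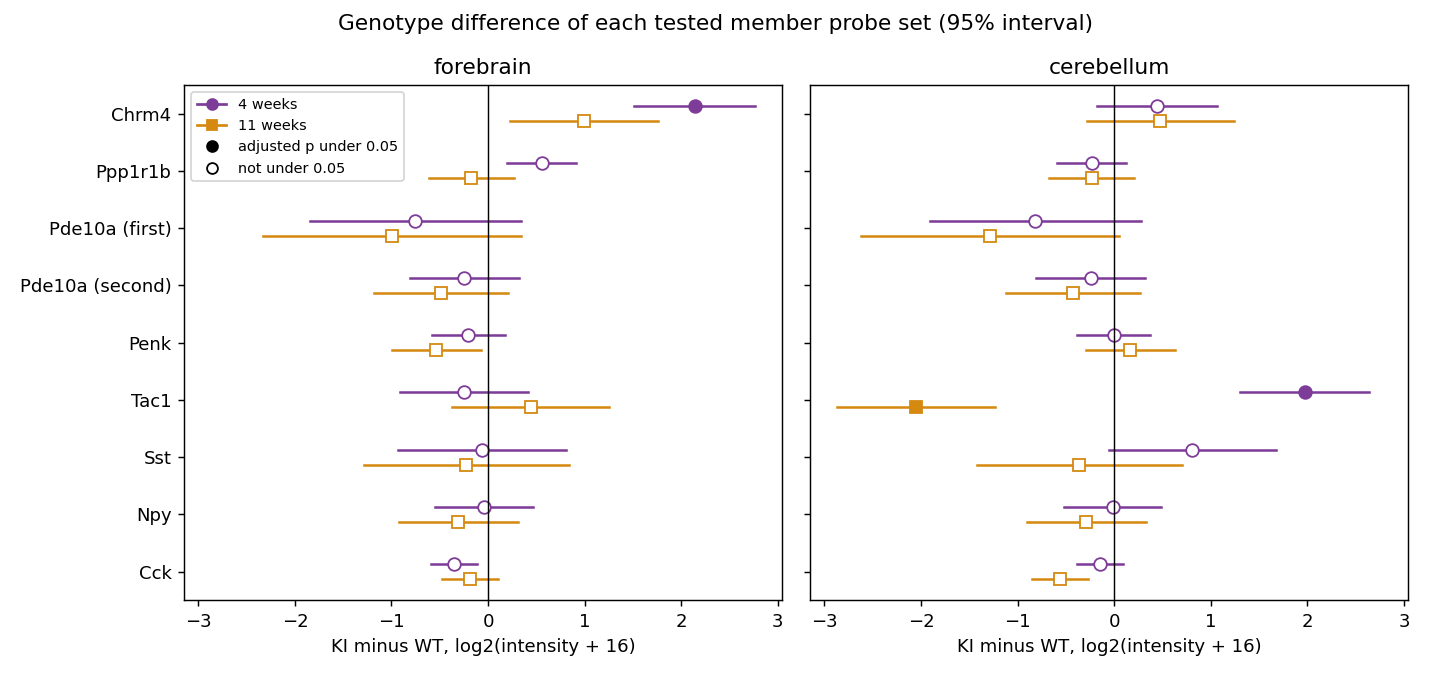
KI minus WT on the log2(intensity + 16) scale (horizontal) for the 9 tested member probe sets in forebrain (left) and cerebellum (right), at 4 weeks (purple circles) and 11 weeks (orange squares), with 95% intervals and filled symbols where the adjusted p was under 0.05. Chrm4 in forebrain at 4 weeks (2.14) and Tac1 in cerebellum at 4 weeks (1.97) and 11 weeks (-2.05) are the filled ones; the labels first and second are the Pde10a probe sets 1419389_at and 1419390_at.

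Of the peptides of interneurons and cortical neurons, Cck was called in cerebellum over both ages. There it read 2543, 3076 and 2908 in KI and 3167, 3186 and 3049 in WT mice at 4 weeks. The older mice read 2353 and 2519 in KI, against 3518 and 3683 in WT mice. The groups overlapped at 4 weeks by 1 array, and stood apart at 11 weeks. The mean difference was -0.35 ± 0.09 (adjusted p = 0.043), 1 of 9 member probe sets called where 3.35% of all were. At the ages singly it was -0.14 ± 0.11 and -0.56 ± 0.14 (adjusted p = 0.0862 at 11 weeks). Leaving out any 1 of 9 of the 10 cerebellar arrays ended the call over both ages, with an adjusted p up to 0.125 and a difference of -0.38 to -0.31 throughout. Cerebellar granule neuron markers were also lower in KI cerebellum, summing to 168440 to 175540 in KI and 180130 to 190680 in WT mice at 4 weeks, and to 156010 to 160400 in KI and 170270 to 171230 in WT mice at 11 weeks. The 9 GABAergic interneuron markers summed to 137760 to 166050 in KI and 149380 to 157220 in WT mice at 4 weeks, which overlapped, and to 135870 to 143880 in KI and 151120 to 152150 in WT mice at 11 weeks. The brightest of the 9 in cerebellum were Calb2 (median 55721) and Pvalb (54071), and Pvalb is also on the marker list of Purkinje cells. Lhx6, Vip and Dlx1 lay above the limit on 0 of 10 cerebellar arrays, so the sum is not one of interneurons alone there. The part of the shifts in both lists in the Cck result was not tested.

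In forebrain Cck read 17662, 18221 and 17098 in KI, against 26776, 22724 and 19005 in WT mice at 4 weeks. Older forebrain read 17284 and 17776 in KI, against 20076 and 19820 in WT mice. All 5 KI arrays lay below all 5 WT arrays. The difference was -0.36 ± 0.11 at 4 weeks (adjusted p = 0.0643), -0.19 ± 0.14 at 11 weeks and -0.27 ± 0.09 over both ages (95% interval -0.46 to -0.08, adjusted p = 0.0538). With fewer tests, Cck was called over both ages in forebrain: with 1 probe set per gene (adjusted p = 0.0459) and with the filter at the 60th percentile (0.0433). It was also called there without WT forebrain 4 weeks replicate 3 (adjusted p = 0.0188). The lower cortical excitatory, interneuron and hippocampal sums of KI forebrain, given above, moved the same way, and their part was not tested.

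Sst and Npy did not pass between genotypes in either region. In forebrain Sst read 16898, 17153 and 16195 in KI and 19915, 16762 and 16084 in WT mice at 4 weeks, and 12636 and 16087 in KI and 14542 and 19120 in WT mice at 11 weeks. Npy read 12520, 16675 and 18468 in KI and 20254, 13891 and 14999 in WT forebrain at 4 weeks, and 10020 and 12730 in KI and 12157 and 16128 in WT forebrain at 11 weeks. For both peptides the genotypes overlapped at both ages. The mean difference was -0.15 ± 0.32 for Sst (95% interval -0.83 to 0.54) and -0.18 ± 0.19 for Npy (-0.57 to 0.22).

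In cerebellum Sst varied widely between arrays of 1 group. It read 443, 1833 and 1243 in KI and 340, 1039 and 512 in WT mice at 4 weeks, and 639 and 545 in KI and 654 and 889 in WT mice at 11 weeks. The highest value was again on KI 4 weeks replicate 2. The difference was 0.81 ± 0.41 at 4 weeks and -0.36 ± 0.50 at 11 weeks, and neither passed. Without that array the 4-week difference was 0.38 (adjusted p = 0.699). Npy read 2726 to 5200 in KI and 3149 to 4801 in WT cerebellum, with a mean difference of -0.15 ± 0.19.

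**Figure D4:**
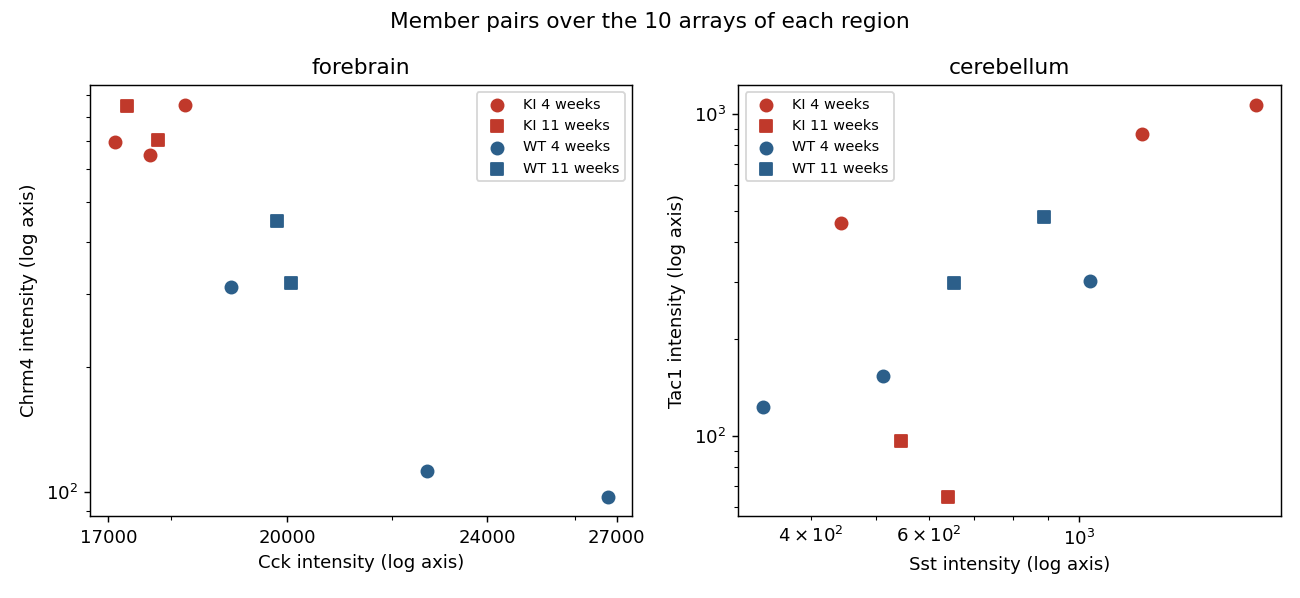
Chrm4 against Cck intensity on the 10 forebrain arrays (left) and Tac1 against Sst intensity on the 10 cerebellar arrays (right), on log axes, with KI in red, WT in blue, circles at 4 weeks and squares at 11 weeks. In forebrain the KI arrays lie at high Chrm4 and low Cck, and the WT 4-week arrays with the lowest Chrm4 (97.7 and 113) have the highest Cck (26776 and 22724); in cerebellum the 2 KI 4-week arrays with the highest Tac1 (1069 and 864) also have the highest Sst (1833 and 1243). Each panel shows a pair chosen after its values were seen, among 36 pairs of members in each region.

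The order of the 8 groups by mean was as follows for the genes with a called difference. Chrm4 was highest in KI forebrain at 11 weeks (776 ± 105, SD, n = 2) and 4 weeks (732 ± 109, n = 3), which overlapped, followed by WT forebrain at 11 weeks (384 ± 93) and 4 weeks (174 ± 120). The cerebellar groups ranged from 85.4 ± 13.1 (KI, 4 weeks) to 48.1 ± 14.0 (WT, 11 weeks), and each overlapped its neighbour. For Tac1 the 4 forebrain groups came first (2821 ± 170 to 1955 ± 347) and each overlapped the next. They were followed by KI cerebellum at 4 weeks (797 ± 310), WT cerebellum at 11 weeks (388 ± 126), WT cerebellum at 4 weeks (193 ± 96) and KI cerebellum at 11 weeks (80.4 ± 22.2). The first 3 of these overlapped their neighbours, and the last stood apart. For Cck the 2 WT forebrain groups led (22835 ± 3887 at 4 weeks and 19948 ± 181 at 11 weeks), and KI cerebellum at 11 weeks was lowest (2436 ± 118).

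With age, no member probe set was called in KI or WT forebrain or in WT cerebellum, and Tac1 was the 1 of 9 called in KI cerebellum. In limma, 0.064% of all probe sets were called with age in KI and 0.0064% in WT forebrain, so few were called in general. At an unadjusted p under 0.05, 0 of 9 passed in KI forebrain (11.5% of all probe sets), 3 of 9 in WT forebrain (6.15%) and 1 of 9 in WT cerebellum (9.31%). In WT forebrain these were Chrm4 (1.23 ± 0.33 at 11 against 4 weeks, adjusted p = 0.514), Ppp1r1b (0.49 ± 0.19, 0.737) and Penk (0.45 ± 0.20, 0.806). Without WT forebrain 4 weeks replicate 3, 1 of 9 was called there (Chrm4). The genotype effect in forebrain did not change with age for any of 9 probe sets past the threshold, and 0 of 15627 probe sets were called in that comparison (0%), with 971 (6.21%) at an unadjusted p under 0.05, and 2 of 9 member probe sets (Chrm4 and Ppp1r1b).

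Other genes of the same pathways were counted from fixed lists, 1 probe set per gene, over both ages. Of 14 tested striatal projection neuron genes, 1 rose and 1 fell in KI forebrain, against 9.45% higher and 4.83% lower over all 9105 genes. Rgs9, a striatal inhibitor of G protein signalling, was 0.37 ± 0.10 higher (adjusted p = 0.0323), and Arpp21, a cAMP-regulated phosphoprotein, was -0.29 ± 0.09 (adjusted p = 0.0388). The list's median was -0.05, against 0.05 over all genes. In KI cerebellum 1 of 14 rose and 0 fell, against 2.59% higher and 1.13% lower over all genes: Rgs9 averaged 2242 in KI and 1375 in WT mice, a difference of 0.70 ± 0.10 (adjusted p = 0.00514).

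Of 34 tested genes of dopamine and cAMP signalling, 2 rose and 1 fell in KI forebrain, and 1 rose and 1 fell in KI cerebellum (beside 9.45% and 4.83% of all genes in forebrain, and 2.59% and 1.13% in cerebellum). Beside Rgs9, which is on both lists, these were Gnai2, an inhibitory G protein subunit (0.41 ± 0.12 in forebrain, adjusted p = 0.0408), Ppp3ca, the catalytic subunit of calcineurin (-0.26 ± 0.07 in forebrain, adjusted p = 0.0237), and Pde2a, a cyclic nucleotide phosphodiesterase (-0.38 ± 0.09 in cerebellum, adjusted p = 0.0385). The list's median was -0.04 in forebrain and -0.02 in cerebellum, against 0.05 and 0.02 over all genes.

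Of the receptors for the listed peptides, 8 of 16 were tested. In KI forebrain 1 rose and 0 fell, beside 9.45% higher and 4.83% lower over all 9105 genes. Tacr2, the receptor for neurokinin A, averaged 913 in KI and 572 in WT forebrain, a difference of 0.66 ± 0.14 (adjusted p = 0.00934), and lay near the filter limit. None of the 8 was called between genotypes in cerebellum, beside 2.59% higher and 1.13% lower over all genes. In WT forebrain 4 of 8 were higher than in cerebellum, beside 22.7% of all genes. Among them were Cckbr, the brain receptor for cholecystokinin (5.10 ± 0.33), Npy1r (4.72 ± 0.24) and Sstr2 (2.21 ± 0.11). The other was Npy5r, named after its value was seen (2.16 ± 0.21).

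Of 12 other neuropeptides tested, 3 rose and 1 fell in KI forebrain, beside 9.45% higher and 4.83% lower over all 9105 genes. Those that rose were Hcrt, the orexin precursor (0.82 ± 0.13, adjusted p = 0.00196), Oxt, the oxytocin precursor (0.66 ± 0.13, adjusted p = 0.00742), and Nts, the neurotensin precursor (0.56 ± 0.15, adjusted p = 0.0237). The one that fell was Vip, a peptide of cortical interneurons and 1 of the 9 interneuron markers above, named after its value was seen (-0.72 ± 0.20, adjusted p = 0.0286). Hcrt was also called in KI cerebellum, as 1 of 12 (0.69 ± 0.13, adjusted p = 0.0126), beside 2.59% higher over all genes. It lay above the limit on 11 of 20 arrays. The hypothalamic marker list, which holds Hcrt and Oxt, summed to 5831 to 9325 in KI and 3846 to 5889 in WT forebrain. Of 7 markers 5 were on the array, of which Avp lay above the limit on 1 and Trh on 0 of 20 arrays. In cerebellum the list was higher in KI too, at 5585 to 6404 in KI and 3792 to 5177 in WT mice at 4 weeks. At 11 weeks it summed there to 5481 to 5857 in KI and 4168 to 4820 in WT mice. The median of Oxt was 3536 in forebrain and 3464 in cerebellum, and that of Hcrt 674 and 710, so these readings were not particular to forebrain. The part of hypothalamic tissue in these results was not tested. Of 14 tested genes of peptide processing and dense-core vesicles, 1 rose and 1 fell in KI forebrain, beside 9.45% and 4.83% of all genes. None was called in cerebellum, beside 2.59% higher and 1.13% lower over all genes. Pcsk1n, an inhibitor of the prohormone convertase, was 0.53 ± 0.14 higher (adjusted p = 0.024), and Chgb, a granin of dense-core vesicles, was -0.24 ± 0.08 (adjusted p = 0.0486).

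The genes whose log2 values followed each member most closely over the 10 forebrain arrays were ranked by Pearson correlation among 9104 other genes. This is a description of arrays that share genotype, age and scaling, with no test. For Chrm4 the 3 most alike were Zfp991, Agap1 and Foxm1, at 0.970, 0.965 and 0.965. For Cck they were Prpf4b, Tuba8 and Mef2d, at 0.969, 0.961 and 0.959. For Tac1 they were Fbxl14, Elp4 and Zdhhc5, at 0.889, 0.873 and 0.861. For Sst they were Bop1, Alas1 and Fzd1, at 0.945, 0.922 and 0.902, and for Npy Llgl1, Znhit3 and Hsd3b3, at 0.962, 0.942 and 0.937. Penk was most like Gtpbp8 (0.923), Ppp1r1b most like Rapgef6 (0.894), Pde10a most like Slf1 (0.956) and Drd2 most like Wdr81 (0.919). No listed member was among another member's 3 most alike genes.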

How the data were processed

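The deposited table holds 1 linear intensity per probe set and array, already summarised and scaled by the authors. Its 2% trimmed mean lay at 2500.59 to 2500.75 on every array, and the array medians at 979 to 1180. The summarisation software is not given in the sources used here, and no detection calls were used. Genes were named from the platform annotation and updated through RefSeq by Entrez number, which matched all 11 member probe sets. The 64 control probe sets and the 691 probe sets of several genes stayed out of gene counts. No scan date was available, so any batch cannot be told apart from the groups, and the number of arrays limits the precision.

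From these intensities, log2(intensity + 16) was fitted in R 4.3.3 with limma 3.58.1 (lmFit, eBayes), with 1 mean per group over all 20 arrays (12 residual and 3.4 prior degrees of freedom), and 15 comparisons were adjusted by Benjamini-Hochberg over 15627 probe sets each. The filter, offset, normalization, arrays in the fit, array weights, the replicate number as a block and each left-out array were tried as alternatives. Tests were checked on simulated data. A dim group with every array under the filter limit was raised to that limit for an "at least" fold.

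Replicate numbers were not used to pair arrays in the main fit. Same-numbered arrays deviated with a correlation of -0.10 to 0.05 across genotypes and -0.02 to 0.11 across regions. No correlations of unmatched numbers were set beside these, so pairing is neither shown nor excluded. No 2 arrays were identical, and the highest correlation between arrays was 0.979. Genes named beside the members are, from each fixed list, up to 3 with the lowest p in a comparison where at least 1 was called, and the 3 genes most alike each member. The members and lists were chosen with earlier results of these data known, and the brainstem list was added after them. Promoter sequences are RefSeq's, build GRCm38.p6. Figures were drawn with matplotlib 3.10.9 in Python 3.11.15.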

Additional observations from a re-analysis of the deposited data

Results flagged for a closer look

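The genotype effect on Tac1 in cerebellum differed between the ages by the interaction term of the limma model. The effect at 11 weeks minus that at 4 weeks was -4.02 ± 0.50 log2 units (adjusted p = 0.00907), made up of a KI excess at 4 weeks (797 ± 310 in KI and 193 ± 96 in WT mice, SD, n = 3) and a KI deficit at 11 weeks (80.4 ± 22.2 in KI and 388 ± 126 in WT mice, n = 2). All arrays but 2, both KI at 4 weeks, lay below the filter limit. The arrays of the 2 ages come from different samples, and summed brainstem neuron genes read 5764 to 10069 in KI and 3641 to 5306 in WT cerebellum at 4 weeks, and 4960 to 5145 in KI and 4171 to 6531 in WT cerebellum at 11 weeks. Their part in the difference was not tested.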

How the results depend on the processing

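Of 2070 values of single member probe sets under the alternatives, 2026 kept their side of the threshold, 12 passed it only under an alternative and 32 lost it. The sign turned in 67, none of them called. In both genotypes the regional comparison gave 6 of 7 called with the filter at the 60th percentile, which dropped Chrm4, 8 of 11 with no filter, which added Drd2, and 7 under the other alternatives. Chrm4 in forebrain at 4 weeks remained called in the 10 settings that kept its probe set (adjusted p up to 0.0497). The cause of the following shifts was not tested. The number of member probe sets called in forebrain at 4 weeks was 2 with the replicate block (Chrm4, Ppp1r1b) and 1 to 3 with single arrays left out. In cerebellum at 4 weeks it fell to 0 with no filter, quantile or cyclic loess normalization, the region's arrays alone or the compared groups alone (Tac1 adjusted p 0.0762, 0.0659, 0.0684, 0.139 and 0.2), and was 0 to 1 with single arrays left out. In cerebellum at 11 weeks it was 0 with an offset of 64, no filter, the region's arrays alone or the compared groups alone (adjusted p 0.0534, 0.0776, 0.121 and 0.207), 2 with array weights (Tac1, Cck), and 0 to 1 with arrays left out. Over both ages in forebrain it was 2 with 1 probe set per gene (Cck, Chrm4) or array weights (Penk, Chrm4), and 1 to 2 with arrays left out. The filter at the 60th percentile dropped Chrm4. Under it the called member of forebrain was Ppp1r1b at 4 weeks and Cck over both ages (adjusted p = 0.0474 and 0.0433). Over both ages in cerebellum the number called was 0 with no filter, cyclic loess, the region's arrays or compared groups alone or the replicate block (Cck adjusted p 0.0518 to 0.0695), and 0 to 1 with arrays left out. The change with age of the cerebellar genotype effect gave 0 with the region's arrays or compared groups alone, and the age comparison in KI cerebellum 0 with the compared groups alone (Tac1 adjusted p 0.198). With arrays left out, the difference of genotype effects between regions and the age comparison in WT forebrain gave 0 to 1. The replicate block changed no other count. Low signal limits Drd2, Chrm4, Tac1 in cerebellum and Pde10a, which lie near or below the filter limit. In forebrain Chrm4 lay above it on 2 of 10 arrays, both of KI mice.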
